A study of Mus musculus with 38 samples.

Results

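Weak promoter peaks are ATAC-seq peaks that the authors' annotation placed at a gene's promoter and transcription start but whose mean signal was low. ATAC-seq uses a transposase to cut and tag DNA that is not wrapped in nucleosomes, so that the number of reads over a site measures how open the chromatin is there. The members were the peaks annotated "promoter-TSS" with a mean log2 normalised signal below 7 over all ATAC-seq libraries, and this gave 12755 of the 18508 promoter-TSS peaks and of the 270806 peaks of the authors' deposited table. They made up 68.9% of the promoter-TSS peaks. The members were thus chosen by their measured mean signal, so signals are given as a description, with no test.

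The chromatin came from cortical collecting ducts (CCDs) dissected by hand from the kidneys of wild-type C57BL/6 mice, labelled as given either a saline or a dDAVP infusion, for 5 days per the titles; dDAVP (desmopressin) is a vasopressin analogue selective for V2 receptors. There were 3 saline and 3 dDAVP ATAC-seq libraries, each made from 3 dissected ducts, and 4 saline and 4 dDAVP RNA-seq libraries. RNA levels of genes with low expression were taken from a second RNA-seq table, with 3 libraries for each of 4 units titled WT. The labels of these WT units conflict: each library is labelled dDAVP, while the name of the table says that no vasopressin was given, so they are used for levels and for no comparison of treatments. The labels do not give age or sex, and do not say that libraries came from separate animals. A duct is a mixture of cells, so fewer cells of a type and less RNA or open chromatin per cell cannot be told apart.

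A promoter is the stretch of DNA around a start site where the transcription machinery assembles. Many genes have more than one start, and an alternative promoter gives a transcript with another first exon and sometimes another protein. Many mammalian promoters lie in CpG islands, where the dinucleotide CpG is common. Promoters of tissue-specific genes more often lack an island and are open only where the gene is used. The collecting duct has principal cells, which take up water and sodium under vasopressin, and intercalated cells, which move acid and base. Vasopressin acts on principal cells through Gs, adenylyl cyclase, cyclic AMP and protein kinase A.

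The DNA before a few of these starts shows what is meant by a weak or alternative promoter. Each line below holds the 250 bases before a RefSeq start site (assembly GRCm38.p6, the same build as mm10), 5′ to 3′ on the gene's strand, with each CpG in capitals. The first pairs set the start under a strong peak beside a start of the same gene under a weak peak, and are shown because the weak peak was lower with dDAVP (Pde4b), close to the threshold (Pax2), upstream in an imprinted gene (Gnas) or higher with dDAVP (Ptprg). Tmsb4x is shown as a highly expressed gene with only weak peaks, and Slc12a1 as a gene of another nephron segment.
Pde4b, start under a strong peak, chr4:102569810-102570059, plus strand: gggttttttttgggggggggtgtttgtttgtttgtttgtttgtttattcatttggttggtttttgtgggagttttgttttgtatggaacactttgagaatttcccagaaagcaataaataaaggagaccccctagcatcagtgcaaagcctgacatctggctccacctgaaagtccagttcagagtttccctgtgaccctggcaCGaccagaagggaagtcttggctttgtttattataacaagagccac
Pde4b, start under a weak peak, chr4:102589593-102589842, plus strand: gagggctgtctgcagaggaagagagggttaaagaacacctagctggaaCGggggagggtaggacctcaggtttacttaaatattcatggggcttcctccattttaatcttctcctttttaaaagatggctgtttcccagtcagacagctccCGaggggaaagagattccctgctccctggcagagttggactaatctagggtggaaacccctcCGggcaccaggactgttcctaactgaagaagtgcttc
Pax2, start under a strong peak, chr19:44755502-44755751, plus strand: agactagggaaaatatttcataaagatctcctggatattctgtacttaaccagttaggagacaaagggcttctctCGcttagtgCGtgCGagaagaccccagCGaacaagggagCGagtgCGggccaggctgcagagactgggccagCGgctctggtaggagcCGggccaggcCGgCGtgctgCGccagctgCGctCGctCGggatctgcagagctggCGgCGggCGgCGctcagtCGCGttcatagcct
Pax2, start under a weak peak, chr19:44746351-44746600, plus strand: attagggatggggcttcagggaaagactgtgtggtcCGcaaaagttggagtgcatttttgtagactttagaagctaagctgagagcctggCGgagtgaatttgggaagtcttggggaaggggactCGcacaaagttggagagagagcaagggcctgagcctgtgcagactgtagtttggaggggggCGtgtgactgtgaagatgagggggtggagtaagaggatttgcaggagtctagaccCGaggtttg
Gnas, start under a strong peak, chr2:174329756-174330005, plus strand: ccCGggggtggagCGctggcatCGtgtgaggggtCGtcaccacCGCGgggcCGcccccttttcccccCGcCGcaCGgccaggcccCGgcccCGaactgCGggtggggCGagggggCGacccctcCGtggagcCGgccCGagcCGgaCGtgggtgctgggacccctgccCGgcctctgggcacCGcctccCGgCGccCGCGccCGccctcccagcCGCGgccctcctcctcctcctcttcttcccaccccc
Gnas, start under a weak peak, chr2:174327499-174327748, plus strand: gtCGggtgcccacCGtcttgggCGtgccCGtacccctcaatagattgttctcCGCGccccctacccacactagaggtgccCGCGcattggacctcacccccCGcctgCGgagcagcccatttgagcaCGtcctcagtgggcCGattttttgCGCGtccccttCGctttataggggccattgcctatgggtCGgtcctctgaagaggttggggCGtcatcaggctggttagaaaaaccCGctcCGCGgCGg
Ptprg, start under a strong peak, chr14:11553303-11553552, plus strand: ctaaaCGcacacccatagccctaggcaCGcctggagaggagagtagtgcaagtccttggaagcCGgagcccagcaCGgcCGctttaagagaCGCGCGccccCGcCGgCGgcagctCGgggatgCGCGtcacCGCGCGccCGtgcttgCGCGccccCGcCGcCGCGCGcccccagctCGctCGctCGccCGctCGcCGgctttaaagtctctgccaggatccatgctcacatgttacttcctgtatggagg
Ptprg, start under a weak peak, chr14:12189693-12189942, plus strand: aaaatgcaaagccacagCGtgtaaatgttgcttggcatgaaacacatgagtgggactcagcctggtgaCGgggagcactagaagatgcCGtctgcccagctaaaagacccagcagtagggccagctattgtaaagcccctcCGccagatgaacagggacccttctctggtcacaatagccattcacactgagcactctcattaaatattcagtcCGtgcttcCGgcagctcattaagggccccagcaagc
Tmsb4x, start under a weak peak, chrX:167209219-167209468, minus strand: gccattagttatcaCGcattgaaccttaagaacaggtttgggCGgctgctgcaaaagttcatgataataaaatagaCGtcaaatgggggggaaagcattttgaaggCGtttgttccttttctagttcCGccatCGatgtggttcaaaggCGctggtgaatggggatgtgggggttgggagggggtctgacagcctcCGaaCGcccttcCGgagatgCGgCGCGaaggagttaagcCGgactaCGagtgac
Slc12a1, start under a weak peak, chr2:125152350-125152599, plus strand: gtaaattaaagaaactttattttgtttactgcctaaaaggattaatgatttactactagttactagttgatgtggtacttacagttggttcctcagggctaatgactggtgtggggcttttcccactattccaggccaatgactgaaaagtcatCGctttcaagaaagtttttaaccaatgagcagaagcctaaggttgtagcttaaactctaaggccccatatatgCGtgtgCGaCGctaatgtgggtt

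Of the pairs, Ptprg differed most in CpG, with 31 before the start under the strong peak and 6 before the start under the weak one. Pax2 had 20 and 5, and Gnas had 29 and 21. Pde4b went the other way, with 1 CpG before its start under the strong peak and 3 before the start under the weak one. Tmsb4x had 15 CpG and Slc12a1 had 4.

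Weak promoter peaks were faint by the rule, and they were narrow. Their mean signal in the authors' deposited table had a median of 3.07 (log2 normalised reads, quartiles 1.72 and 4.81), against 8.31 for the 5753 strong promoter-TSS peaks of 7 or more. Their median width was 178 bp (quartiles 104 and 339 bp, range 74 to 1820 bp), against 1032 bp for the strong ones. Median width rose with signal, from 83 bp at a mean signal of 0 to 1 to 618 bp at 6 to 7. In peaks of other annotations it was 75 and 691 bp at these signals, so a rule on signal picks narrow peaks of any annotation. With saline the median signal of weak promoter peaks was 3.29, and with dDAVP it was 2.82. The saline mean was listed at 0 for 543 weak peaks, the dDAVP mean for 736, and both for 150. Lvrn, an aminopeptidase, had the widest weak peak at 1820 bp, followed by 9530051G07Rik at 1771 bp and the transcription factor gene Foxf1 and the kinase gene Mark1 at 1769 bp each. All 4 of these had a mean signal above 6. Nudt10 had a peak of 1708 bp with a signal of only 4.04.

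**Figure D1:**
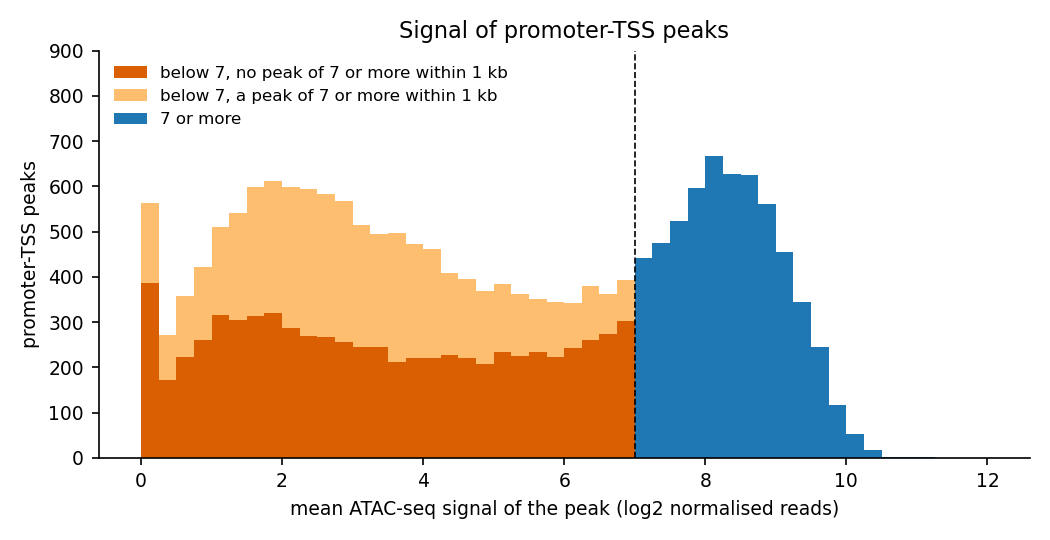
The number of promoter-TSS peaks (y axis) in each step of mean ATAC-seq signal (x axis, log2 normalised reads), with weak peaks within 1 kb of a peak of 7 or more in light orange, the other weak peaks in dark orange and strong peaks in blue. The weak signals spread over the whole range below the dashed line at 7 and the strong ones centre on 8.31, with no gap between them at the line.

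The threshold cut through a continuous range. Just below it lay the weak peaks of Arf5, which encodes a small GTPase of the Golgi, 1700028I16Rik, Pdzd2, the mitochondrial sirtuin gene Sirt4 and Arhgef25. Just above it lay the strong peaks of Atp6v0c, a subunit of the proton pump, Whrn, Kif1c, Prdm1 and Bub1. All 10 had a mean signal that rounds to 7.00, so that genes on each side of the line are alike in signal. The lowest weak peaks had a mean signal of 0.00, and among these many ties the first by name lay near 1110059G10Rik, 1700025J12Rik, 1700025N23Rik, 2410004P03Rik and 2410006H16Rik.

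Most weak promoter peaks did not cover a RefSeq start of the gene named for them. Such a start, of any transcript of the named gene, was found for 9741 weak and 4642 strong peaks. A start of the gene lay inside 27.6% of these weak peaks and 93.9% of these strong peaks. The peak centre lay a median of 311 bp upstream of the nearest such start for weak peaks (-311) and 25 bp upstream for strong ones (-25). The share that covered a start rose with signal, from 3.68% at a mean signal of 0 to 1 to 72.3% at 6 to 7. Median width rose over the same steps from 83 bp to 618 bp, and its part in these shares was not tested. Non-coding transcripts held 12.4% of weak and 8.55% of strong promoter-TSS peaks, and microRNA transcripts 2.08% and 1.01%. In 34 weak peaks the annotated transcript lies on another chromosome than the peak, and none of these is described by gene.

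A large group of weak promoter peaks sat on the flanks of strong peaks. A strong peak of any annotation lay within 1 kb of 5592 weak promoter peaks (43.8%), at a median gap of 92 bp, and within 200 bp for 3968 of them. This split was chosen after the data were seen. The neighbouring strong peak was annotated promoter-TSS in 3123 cases, intron in 1094, 5′ UTR in 597 and exon in 479. The flanking weak peaks had a median width of 142 bp and covered a start in 7.67% of cases. The other 7163 weak peaks, called isolated here, had a median width of 227 bp and covered a start in 44.5% of cases. Their median signals were 2.96 and 3.21.

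Some housekeeping genes had a strong peak at their 5′ end that carried another annotation, and a weak one named promoter. Actb, which encodes cytoplasmic actin, had no strong promoter-TSS peak, and its weak peaks of 4.26 and 3.90 lay 161 bp from an intergenic peak of 7.82 and 61 bp from an intronic peak of 9.53. B2m, the light chain of class I histocompatibility molecules, had a weak peak (1.18 with saline and 1.02 with dDAVP) at 24 bp from an intronic peak of 8.52. Of the 15 genes in the housekeeping list, 6 had only strong promoter-TSS peaks, 3 had both kinds, 5 had only weak ones and 1 had none. Psmb4, a proteasome subunit, was the weak-only one with no strong peak within 1 kb, and its peaks were listed at 0.09 and 0.00.

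By gene, weak peaks more often stood alone than beside a strong promoter peak of the same gene. The weak peaks named 8971 of the 12488 genes with a promoter-TSS peak. Of all 12488 genes, 6948 had only weak promoter-TSS peaks, 2023 had both kinds and 3517 had only strong ones. The weak-only genes held 78.2% of the weak peaks and the genes with both kinds 21.4%, and 46 weak peaks carried no gene name. Among the weak-only genes, 2576 had a strong peak of another annotation or another gene within 1 kb of a weak peak, and 4372 did not. Most genes (6227) had 1 weak peak, 2043 had 2 and 505 had 3. Bcl11a, a zinc finger transcription factor, had the most with 9, all more than 1 kb from a strong peak and with mean signals of up to 4.92. Ak1 (adenylate kinase), Dctn1 (dynactin), Mrtfb (a coactivator of serum response factor) and Sema3b (a secreted semaphorin) had 7 each.

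RNA levels differed widely between weak-only genes with and without a strong peak nearby. In the 4 WT units, the median level of the 3447 strong-only genes that the table holds was 23.4, 23.3, 22.0 and 23.3 TPM (a level scaled for transcript length and for the total of the library). The 2511 weak-only genes with a strong peak nearby had medians of 23.2, 23.6, 22.4 and 23.9 TPM. The 4274 isolated weak-only genes had medians of 0.403, 0.560, 0.477 and 0.618 TPM. The median of the isolated group lay far below the others in each unit, and its mean over units moved from 0.515 TPM to 0.278 TPM at a threshold of 6 and to 2.43 TPM at 8, while the ranges of the other two overlapped. The 2004 genes with both kinds had medians of 26.4 to 28.8 TPM, and the 40091 listed genes with no promoter-TSS peak had medians of 0 to 0.06 TPM. A level above 1 TPM was found for 39.7% to 42.1% of isolated weak-only genes, 91.0% to 91.8% of those with a strong peak nearby and 91.3% to 92.0% of strong-only genes. These levels are a description, since signal and gene class were set from the same chromatin table.

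**Figure D2:**
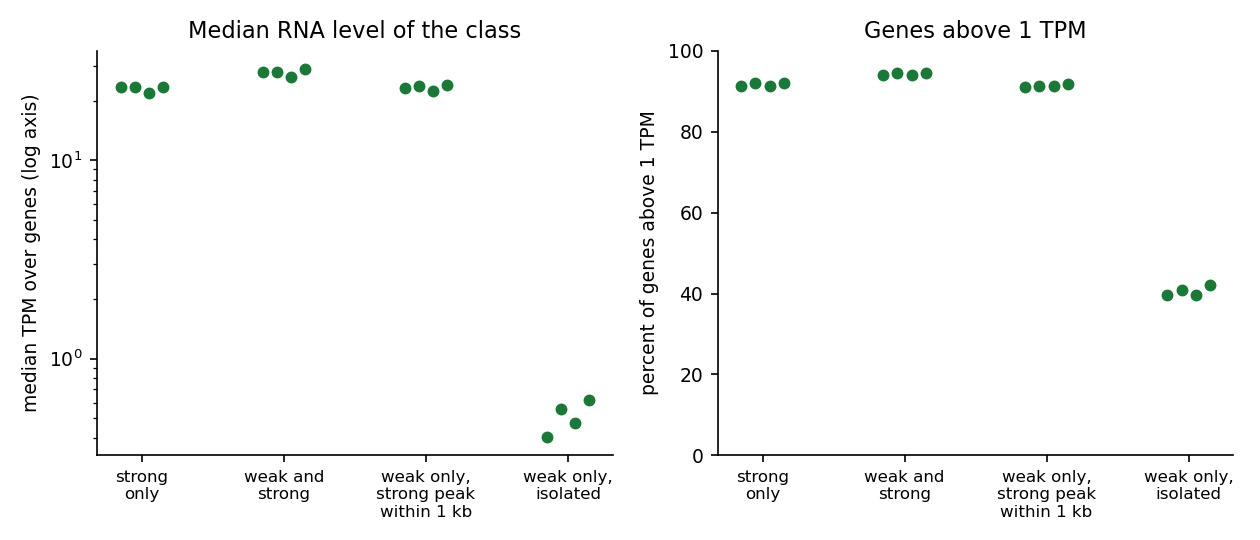
Median RNA level (left, TPM on a log axis) and percent of genes above 1 TPM (right) in each promoter class (x axis), with 1 point for each of the 4 WT units. Isolated weak-only genes sit at 0.403 to 0.618 TPM, and weak-only genes with a strong peak within 1 kb sit at 22.4 to 23.9 TPM, close to strong-only genes at 22.0 to 23.4 TPM; the right panel shows 39.7% to 42.1% against 91.0% to 94.6% in the other classes.

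A weak promoter peak did not mean that a gene was off. Of the 4274 isolated weak-only genes, 1486 (34.8%) were above 1 TPM in all 4 WT units and 194 (4.54%) were at 0 in all 4. Tmsb4x, the actin-binding thymosin whose promoter is printed above, had 5036, 4052, 2533 and 7049 TPM in the saline libraries. Its strongest promoter-TSS peak, at its start, had a mean signal of 5.99 and no strong peak of any kind lay within 1 kb. Uqcr11, a subunit of respiratory complex III, had 5112, 4057, 2496 and 2120 TPM with saline and a weak peak of 6.86 over its start. Gpx3, a secreted glutathione peroxidase made in the proximal tubule, had 3893, 4747, 30995 and 501 TPM with saline. Its weak peak had a signal of 5.15, and the level differed widely between libraries. S100g, a calcium-binding protein of the distal nephron, had 1285, 7549, 588 and 223 TPM with saline and a weak peak of 4.83. Itm2b and Pdzk1ip1, with mean saline levels of 5234 ± 767 TPM and 4820 ± 1196 TPM (SD, n = 4), had weak peaks at 82 and 47 bp from strong peaks annotated 5′ UTR and exon.

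In the other direction, 43 of 3447 strong-only genes (1.25%) were at 0 TPM in all 4 WT units. Those with the strongest peaks were the microRNA genes Mir1938, Mir3569, Mir2139, Mir7009 and Mir3960. Whether the libraries capture RNA as short as a microRNA was not tested, so 0 TPM need not mean that these genes were off. The genes are those of the deposited gene name, and the peak named Mir7009 was annotated to a protein-coding transcript.

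Promoters under weak peaks held fewer CpG than those under strong peaks. The comparison used 32851 RefSeq windows from 250 bases before to 50 bases after a start. The ratio of observed to expected CpG had a median of 0.80 in the 10613 windows under a strong peak of any annotation. It was 0.57 in the 3837 windows under a weak promoter peak and no strong one, and 0.20 in the 16222 windows under no peak. Within the weak group it was 0.38 at a mean signal of 0 to 2 and 0.73 at 6 to 7. GC content had medians of 63%, 57% and 47% in the same order. The motif GGGCGG, to which Sp1 factors bind, occurred on either strand in 70.8%, 47.3% and 11.0% of these windows, against 35.7% of all windows. TATAAA, the core of the TATA box, occurred in 5.10%, 10.4% and 20.2%, against 13.6% of all. CCAAT occurred in 38.3%, 33.4% and 38.7%, against 37.4% of all. The cyclic AMP response element TGACGTCA occurred in 3.44%, 1.98% and 0.752%, against 1.79% of all. The weak group lay between the strong windows and those with no peak for all of these measures but CCAAT, for which it lay below both. The other 2179 windows lay under a weak peak of another annotation, with a median CpG ratio of 0.35 and GGGCGG in 27.5%. The letters are a description and not a sign that a factor binds.

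**Figure D3:**
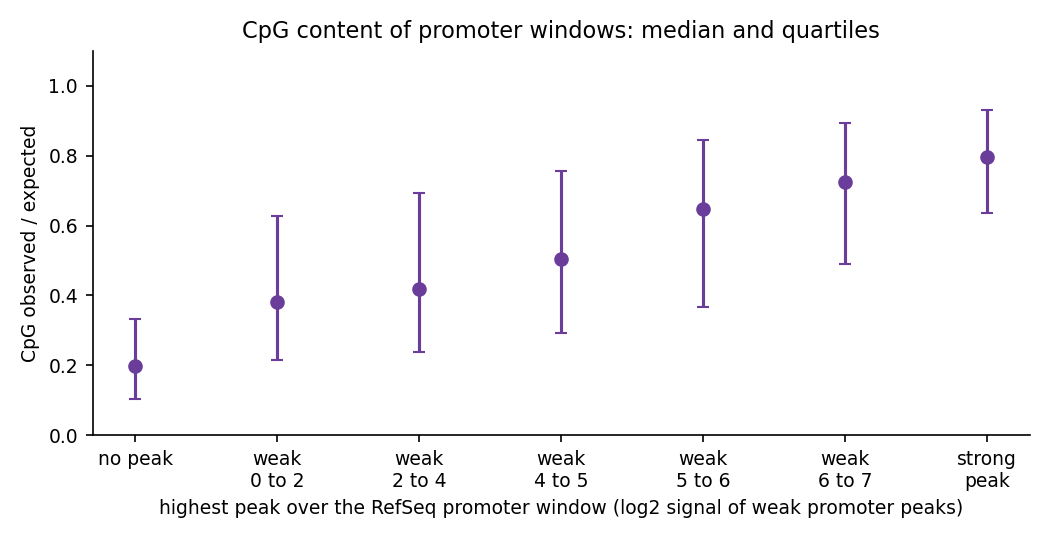
Ratio of observed to expected CpG (y axis) in the 300-base RefSeq windows around gene starts, by the peak that covers the window (x axis, weak promoter peaks in steps of mean log2 signal), shown as medians with quartiles. The median rises from 0.38 in the lowest step of weak peaks to 0.73 in the highest, between 0.20 with no peak and 0.80 under strong peaks.

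Among principal cell genes, weak peaks mostly accompanied a strong promoter. Of the 18 genes in the list, 7 had only strong promoter-TSS peaks, 8 had both kinds, 2 had only weak ones and 1 had none. Aqp2, the vasopressin-regulated water channel, had a weak peak of 3.96 at 118 bp from its strong peak of 8.90. Nr3c2, the mineralocorticoid receptor gene, had a weak peak of 6.44 at 45 bp from a strong one of 9.41. Kcnj1, the potassium channel ROMK, had a weak peak of 6.00 at 2242 bp from the nearest strong peak, while its strongest promoter-TSS peak reached 8.06. Elf5, a principal cell transcription factor gene, had a weak peak of 3.84 at 9481 bp from the nearest strong peak of any annotation, while its strongest promoter-TSS peak reached 7.13. Hsd11b2, which protects the mineralocorticoid receptor from glucocorticoids, was weak only, with a peak of 5.38 at 52 bp from a 5′ UTR peak of 9.08. Aqp4, a water channel of the basolateral membrane, was the 1 weak-only gene of the list with no strong peak within 1 kb, with peaks of 5.59 and 3.83.

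Intercalated cell genes included several with only an isolated weak promoter. Of 20 genes, 5 were strong only, 2 had both kinds, 8 were weak only and 5 had no promoter-TSS peak, and 6 of the 8 weak-only genes were isolated. Hmx2, a homeobox gene, had peaks of 6.90 and 5.67. Insrr, an alkali-sensing receptor, had 6.66, Atp6v1c2, a proton pump subunit, had 6.35, and Oxgr1, the oxoglutarate receptor, had 6.12. Kit, a receptor tyrosine kinase, and Car15, a carbonic anhydrase, had weak peaks of 2.77 and 1.93 beside intronic peaks of 7.51 and 8.90. How many cells of each type the ducts held was not measured, and its part in these signals was not tested.

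Markers of other nephron segments and vessels had weak promoter peaks and few strong ones. Of 27 proximal tubule genes, 10 had weak promoter-TSS peaks, all isolated, and none had a strong one. Of these, Ass1 (argininosuccinate synthase) had 6.30, Lrp2 (megalin) 5.87, Slc27a2 (a fatty acid transporter) 5.70 and Gatm (creatine synthesis) 5.22. Of 14 genes of the thick limb and distal convoluted tubule, 7 were weak only, with Umod (uromodulin) at 6.29 and Cldn16 (a claudin of the thick limb) at 6.19, and 4 had a strong peak, the highest Wnk4 at 8.70. Of 12 endothelial genes, 11 were weak only, with Flt1 at 6.50, Tek at 5.08 and Kdr at 4.88, all receptors of vessel growth factors, and 1 (Ehd3) had a strong peak of 7.47. Of 10 podocyte genes, 4 were weak only, Cdkn1c at 7.00 to 2 decimals, Podxl at 6.39, Wt1 at 5.99 and Foxc2 at 3.47.

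RNA of these other cell types was present in uneven amounts. The proximal tubule list, 14 of 27 genes of which were in the table, summed to 1066 to 17432 TPM in the saline libraries and 1837 to 15397 TPM in the dDAVP libraries. The thick limb and distal tubule list, with 4 of 14 genes, summed to 600.3 to 9146 TPM and 476.8 to 6819 TPM. The endothelial list, with Emcn and Plvap, summed to 110.8 to 201.7 TPM with saline and 161.1 to 423.8 TPM with dDAVP. No podocyte or leukocyte gene was in that table, which lists only genes above 10 TPM in all 8 libraries. Their part in the peaks was not tested.

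Genes of tissues outside the kidney also had weak promoter peaks. Of 13 neuronal genes, 10 were weak only and none had a strong peak, with Syn1 (synapsin) at 6.20, Slc17a7 (vesicular glutamate transport) at 4.97, Tubb3 (neuronal tubulin) at 4.94 and Gad1 (GABA synthesis) at 4.41. Their RNA was low, with a median over the list of 0.0667 to 0.297 TPM in the WT units. Of 12 striated muscle genes, 5 had weak peaks, with Actn2 the highest at 4.36. Of 12 hepatocyte genes, 4 had weak peaks, with Apoa2 the highest at 5.43. Germ line genes had 2 of 13, Mael at 0.39 and Stra8 at 0.32. Of 15 leukocyte genes only S100a8 had a weak peak, at 1.75, while the median RNA of that list was 2.03 to 4.05 TPM in the WT units.

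Gene families differed in their share of weak-only genes, beside 6948 of all 12488 genes with a promoter-TSS peak. Only 8 olfactory receptor genes had a promoter-TSS peak, of 1410 such symbols in the RNA-seq table, and all 8 were weak and isolated. Among 33 Hox genes with a promoter-TSS peak, 27 were weak only, and among 226 microRNA genes 177 were weak only. Among 260 zinc finger genes named by the Zfp symbol, 131 were weak only and 129 had a strong peak. Among 80 cytosolic ribosomal protein symbols, 32 were weak only, 24 had both kinds and 24 were strong only.

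Components of the cyclic AMP pathway had many weak peaks. The 22 listed genes held 35 weak peaks; 3 genes were strong only, 5 had both kinds, 11 were weak only and 3 had no promoter-TSS peak. At the receptor and G protein, Avpr2, the V2 receptor gene, had only a strong peak of 7.72. Gnas, which encodes the stimulatory G protein subunit and is imprinted, had weak peaks from 1.47 to 5.37 and a strong one of 7.76. Among the cyclases, Adcy6 had a weak peak of 5.74 beside an intergenic strong peak of 7.75, Adcy3 had isolated weak peaks of up to 3.34 and Adcy5 had 1 of 3.34. Among the kinase genes, Prkaca had a weak peak of 3.15 at 45 bp from a strong one of 9.30, and Prkacb had an isolated one of 6.11. The regulatory subunit genes Prkar1a and Prkar1b had weak peaks of 4.91 and of 4.98 to 6.25 with strong peaks of 7.77 and 9.27. Prkar2b was weak only at 5.85. Among the phosphodiesterases, which degrade cyclic AMP, Pde1a reached 6.22, Pde4b 5.92, Pde4d 4.43 and Pde4a 3.59, and none of them had a strong promoter-TSS peak. Akap12, an anchoring protein, had a peak listed at 0.00.

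With dDAVP, weak promoter peaks shifted lower, as did the strong ones. The median log2 fold change (dDAVP over saline) in the authors' deposited table was -0.45 for weak promoter peaks, -0.50 for strong promoter peaks and -0.17 for all peaks. The fold change was below 0 for 76.2% of the weak and 99.9% of the strong promoter peaks. At an adjusted p-value below 0.05 in the authors' deposited table, 31 weak promoter peaks were higher with dDAVP and 1007 were lower. That is 0.243% and 7.89% of the weak promoter peaks, where 0.846% and 5.98% of all peaks were called higher and lower. The share called lower rests on the threshold of 7: at 6 it was 3.59%, below that of all peaks, and at 8 it was 14.0%, above it. Strong promoter peaks had 0 called higher and 3767 (65.5%) called lower in the authors' deposited table. The table gives group means only, so the spread between libraries cannot be shown. Relative to the median of all peaks, 68.3% of the weak promoter peaks were lower.

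Calls of lower signal among weak promoter peaks were more frequent at higher signal, while calls of higher signal stayed between 0% and 0.506% in each step and were most frequent at 3 to 4. Of 1614 weak promoter peaks below a signal of 1, the authors' deposited table called 0 lower, against 18.6% of those at 5 to 6 and 40.7% of those at 6 to 7. Peaks of other annotations at the same signals were called lower in 8.86% and 24.0% of cases. Their median fold change in that authors' deposited table was 0.68 at a signal of 0 to 1 and -0.41 at 6 to 7, against -0.16 and -0.53 for the promoter peaks. The median fold change of promoter peaks was below that of the others in each step of signal, a difference that was not tested. Flanking and isolated weak peaks had median fold changes of -0.56 and -0.32 in the authors' deposited table. All but 1 of the 31 peaks called higher were isolated.

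**Figure D4:**
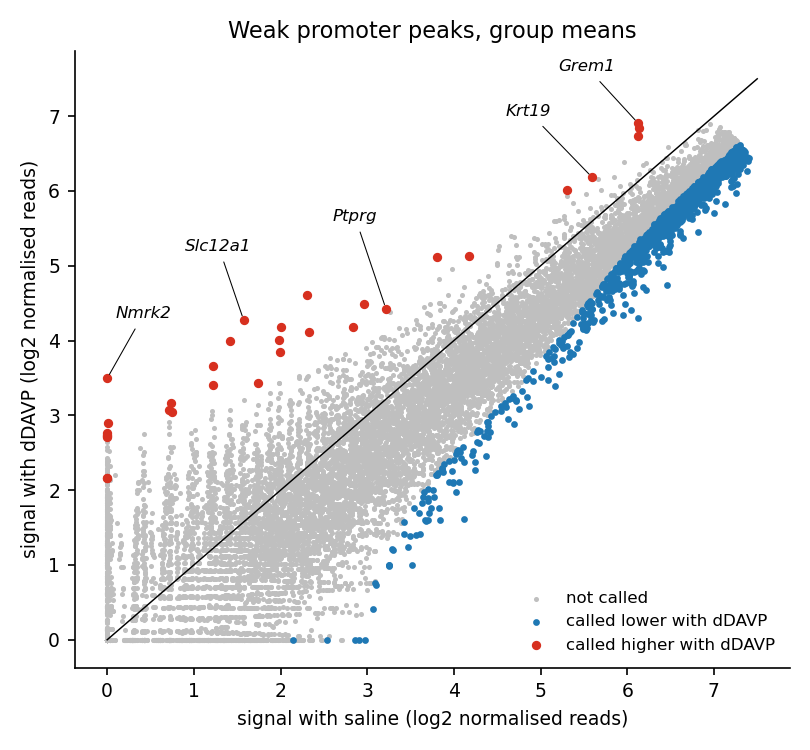
Signal of each weak promoter peak with dDAVP (y axis) against saline (x axis), both as the authors' group means in log2 normalised reads, with 31 peaks called higher in red, 1007 called lower in blue, the rest in grey and a line at equal signal. Most peaks lie below the line, blue points gather at high signal, and red points lie mostly at low saline signal.

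The largest called gains among weak promoter peaks with a signal above 0 in both groups were at peaks that were very faint with saline. Slc12a1, the sodium, potassium and chloride transporter of the thick limb, went from 1.57 with saline to 4.28 with dDAVP at chr2:125152401-125152739, over its start. Its log2 fold change was 2.77 (adjusted p = 0.000297) in the authors' deposited table. Nmrk2, a kinase of nicotinamide riboside, went from 0.00 to 3.50 (chr10:81202218-81202571), a log2 fold change of 3.45 in the authors' deposited table. Zfp648 lay between Nmrk2 and Slc12a1 at 2.84 in the authors' deposited table. Next in size came the adhesion receptor gene Adgrd1 at 2.63, the betaine transporter gene Slc6a12 at 2.49 and Chrna2 at 2.46 in the authors' deposited table. After them came 4930461G14Rik (2.39), Lrrc52 (2.38), Filip1l (2.33) and Gm4146 (2.26) in that authors' deposited table. All 10 lay more than 1 kb from any strong peak, and their saline signals were low, from 0.00 to 2.31.

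Peaks called higher at high signals, named after their values were seen, included those of Grem1, 9230116L04Rik and Krt19. Grem1, an antagonist of bone morphogenetic proteins, went from 6.12 to 6.91, and Krt19, an epithelial keratin, from 5.59 to 6.19. Gjb5, a connexin gene, went from 1.99 to 3.85. Slc27a2, of the proximal tubule list, went from 5.31 to 6.01 (log2 fold change 0.81, adjusted p = 0.0179 in the authors' deposited table). Slc5a1, a glucose transporter of the late proximal tubule, went from 2.84 to 4.18. Of the 13 weak peaks of the proximal tubule list, 1 was called higher and 1 lower, beside 0.846% and 5.98% of all peaks. Of the 14 weak peaks of the thick limb and distal convoluted tubule list, 1 (Slc12a1) was called higher and 0 lower. Of these 14, 7 had a fold change below 0 in the authors' deposited table. The strongest weak peaks of that list, at Umod and Cldn16, went from 6.38 to 6.20 and from 6.14 to 6.23. The lists of other nephron segments summed to the uneven RNA amounts given above, whose part in these gains was not tested. The endothelial list had no peak called in either direction in the authors' deposited table.

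Of the peaks with a saline mean at 0, those of Arap1, Cnrip1, Rbm44 and Fermt3 reached 2.76, 2.74, 2.72 and 2.71 with dDAVP and were called higher, while that of Pcsk6 at 2.68 was not. Arap1, a regulator of small GTPases, was the only gene with a peak called higher that also had a strong promoter-TSS peak, of 8.71. Of the 31 genes with a peak called higher, 1 was in the dDAVP RNA-seq table and it was Slc27a2. Its RNA was 266.7, 595.6, 864.6 and 53.6 TPM with saline and 131.0, 212.8, 201.8 and 624.7 TPM with dDAVP. These ranges overlap, and the log2 fold change was -0.27 (SE 0.74, limma adjusted p = 0.92).

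Among called losses with a signal above 0 in both groups, the largest lay on narrow peaks, several of them on the flank of a strong one. Paf1, a subunit of an RNA polymerase II elongation complex, went from 4.11 with saline to 1.61 with dDAVP at 187 bp from its own strong peak. Dkk1, a secreted inhibitor of Wnt signalling, went from 3.52 to 1.00 at 356 bp from an exonic peak of 7.36. Ranbp2 (nuclear pore), Igf2bp2 (RNA binding), Selenow, Syf2 and Cab39l had losses of the same kind, with log2 fold changes of -2.14 to -2.06 in the authors' deposited table. Slc17a6 and Olr1 went from 3.10 to 0.73 and from 3.26 to 1.01 with no strong peak within 1 kb. Of the called peaks with a signal above 0 in both groups, Gm32926 had the largest loss, -2.43 in the authors' deposited table. Of the peaks listed at 0 with dDAVP, those of Rab26os, Wnt10a and A330102I10Rik had saline means of 2.98, 2.90 and 2.86 and were called lower. Those of Snrpg and Syf2 had 2.71 and 2.70 and were not called.

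Within the cell type and pathway lists, the calls were few in number and mostly of losses. In the authors' deposited table the principal cell list had 0 weak peaks called higher and 1 called lower, which was Kcne1, a potassium channel subunit. Its weak peak went from 4.37 to 2.45 at 54 bp from its strong peak of 8.71. The intercalated list had 1 called lower, Insrr, from 7.00 to 6.22 (adjusted p = 0.0151 in the authors' deposited table). The cyclic AMP list had 2 of 35 called lower. These were Pde4b, from 6.34 to 5.32 (chr4:102589537-102589985, adjusted p = 0.0044), and Pde4a, from 4.24 to 2.37 (adjusted p = 0.00999), in the authors' deposited table. The list of genes regulated through the cyclic AMP response element binding protein had 4 of 26 called lower, 2 at Fosb, 1 at Atf3 and the 1 at Pde4b. Fosb, a component of AP-1, went from 7.11 to 6.22 and from 6.00 to 4.92. Among transcription factors of the duct, 3 of 22 were called lower, 1 each at Elf3, Pax2 and Hoxb7. The list of dDAVP-responsive duct genes, chosen with earlier results of these data known, had 4 of 20 called lower and 0 higher. Each of these shares stands beside the 5.98% of all peaks called lower.

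Genes known for alternative promoters held 66 weak peaks on 33 genes. Of these genes 1 was strong only, 8 had both kinds, 17 were weak only and 7 had no promoter-TSS peak. Of the 66 peaks, the authors' deposited table called 0 higher and 7 lower, 2 at Igf1 and 1 each at Igf2, Tcf7, Lef1, Trp73 and Pde4b, where it called 0.846% of all peaks higher and 5.98% lower. Igf2, an imprinted growth factor gene, had the largest of these losses, from 5.58 to 4.29. Tcf7 and Lef1, which encode partners of β-catenin, went from 7.29 to 6.48 and from 6.39 to 5.47. Ank3 (ankyrin-G) had isolated weak peaks of 6.69 and 5.56 some distance apart, neither called. Wnk1, which has a kidney-specific start, had weak peaks of 2.53 and 2.34 beside a 5′ UTR peak of 9.25.

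Second starts could be picked out with the RefSeq windows. A window counted when a weak promoter peak covered it, no strong peak did, and it lay more than 1 kb from every start of the same gene under a strong peak. There were 319 such windows in 272 genes, of 4163 genes with 2 or more starts, and they held 302 distinct weak peaks. Of these peaks, 105 lay upstream of the gene's strongest start and 197 downstream, at a median of 17410 bases (quartiles 4272 and 52423). The weak peaks had a median signal of 4.94, against 8.30 for the strong peaks of the same genes. The CpG ratio was 0.36 at the weak starts and 0.75 at the strong ones. Of the 302, the authors' deposited table called 2 (0.662%) higher with dDAVP and 37 (12.3%) lower, beside 0.846% and 5.98% of all peaks. Called lower were 7.89% of all weak promoter peaks and 13.6% of the 2337 with a centre within 100 bases of a start. The median log2 fold change of the 302 was -0.39, against -0.50 at the strong starts, in the authors' deposited table.

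The 4 genes printed above as pairs are among them. Pde4b had a weak start at 19783 bases downstream of its strong one, and the weak peak went from 6.34 to 5.32 with dDAVP while the strong peak went from 8.61 to 8.14. The fold change was -0.90 (adjusted p = 0.0044) for the weak and -0.36 (adjusted p = 0.171) for the strong peak in the authors' deposited table, and the difference between them was not tested. Pax2, a transcription factor gene of the developing and adult duct, had a weak start 9151 bases upstream with a mean signal of 6.98, against 9.50 at the strong start. Gnas had weak starts 2257 and 45686 bases upstream, of 5.37 and 3.59, and a strong one of 7.76. Ptprg, a receptor tyrosine phosphatase gene, had a weak start 636390 bases downstream that went from 3.21 to 4.43, while its strong start went from 8.05 to 7.27. In the authors' deposited table its peaks had adjusted p = 0.0391 and 0.0098, in opposite directions. Arap1 was the other gene with a second start called higher, 46319 bases downstream. Losses at second starts included Cdkn2c, a cyclin-dependent kinase inhibitor gene, from 5.95 to 4.34, and Sema4a, a semaphorin gene, from 5.33 to 3.78.

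Few genes with a weak promoter peak had RNA that passed the test of dDAVP against saline, at a share near that of all genes. Of 5035 genes tested with limma, 0.695% (35 genes) were called at an adjusted p below 0.05. Of the 2342 with a weak promoter peak, 16 were called (0.683%), 10 higher and 6 lower, and 266 had an unadjusted p below 0.05. The median log2 fold change was -0.06 both in these genes and in all genes. Of the 424 isolated weak-only genes in the table, 2 were called, and of the 1016 weak-only genes with a strong peak nearby, 5 were. Of 312 genes with a weak peak called lower, 4 were called, 1 higher and 3 lower.

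**Figure D5:**
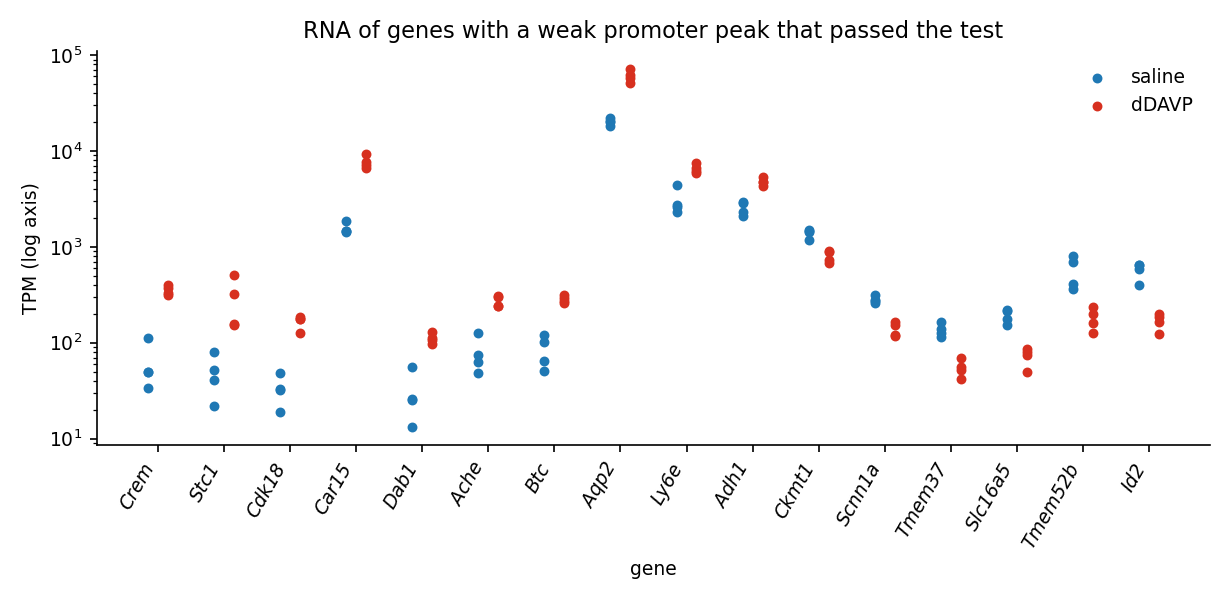
RNA level (TPM, log axis) of the 16 genes with a weak promoter peak that passed the limma test, with 1 point per saline or dDAVP library. In each gene the 4 saline and the 4 dDAVP points do not overlap, with 10 genes higher and 6 lower with dDAVP. The test picked these genes from the same libraries, so the separation is no further evidence.

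The genes that rose include vasopressin targets whose weak peaks lay beside a strong one. Aqp2 had 20212, 21874, 20524 and 18074 TPM with saline and 51774, 58027, 72251 and 61434 TPM with dDAVP. All dDAVP libraries were above all saline libraries, and the log2 fold change was 1.59 (SE 0.18, limma adjusted p = 0.0028). Under quantile normalization the call was lost (log2 fold change 0.42, SE 0.34, limma adjusted p = 0.70). Its weak peak had a saline signal of 4.31 and a dDAVP signal of 3.51 and was not called. Car15 had 1863, 1471, 1430 and 1450 TPM with saline and 6693, 7104, 9362 and 7643 TPM with dDAVP (limma adjusted p = 4.8e-05, log2 fold change 2.31, SE 0.16). Its weak peak, at 1.53 and 2.24, was not called either. Crem, which encodes cyclic AMP response modulators from more than one promoter, had 49.8, 111.7, 49.8 and 34.0 TPM with saline and 329.6, 375, 403 and 315 TPM with dDAVP. Its log2 fold change was 2.65 (SE 0.31, limma adjusted p = 0.0028), and none of its 4 weak peaks was called in the authors' deposited table. Crem's weak peak of lowest signal, the one farthest from a strong peak, was listed at 0.00 with saline and 1.14 with dDAVP.

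The isolated weak-only genes with RNA called were Stc1 and Tmem52b, and in both a weak peak was called lower while another was not called. Stc1, which encodes the hormone stanniocalcin, had 40.9, 51.3, 21.7 and 79.7 TPM with saline and 152.6, 505, 323.8 and 158.6 TPM with dDAVP. Its RNA rose (log2 fold change 2.49, SE 0.45, limma adjusted p = 0.026), while its weak peak at chr14:69028877-69029469 went from 6.82 to 6.03 (adjusted p = 0.0164 in the authors' deposited table). Tmem52b, a membrane protein gene, had 694, 803.6, 367.3 and 409.1 TPM with saline and 161.5, 236.3, 199.9 and 126.2 TPM with dDAVP. Its RNA fell by 1.61 on the log2 scale (SE 0.28, limma adjusted p = 0.024), and its peak at chr6:129512381-129512723 went from 6.49 to 5.33. RNA and the called peak thus went opposite ways at Stc1 and the same way at Tmem52b. Both called peaks had a mean signal of 6 to 7, a step in which 40.7% of weak promoter peaks were called lower. The median log2 fold change of that step was -0.53, against -0.68 at Stc1 and -1.05 at Tmem52b in the authors' deposited table. The uncalled weak peaks went from 4.20 to 3.96 at Stc1 and from 4.84 to 3.75 at Tmem52b. Their adjusted p was 0.91 and 0.13 in the authors' deposited table.

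Other genes that fell were Id2, Slc16a5, Scnn1a, Tmem37 and Ckmt1. Id2, an inhibitor of basic helix-loop-helix factors, had 580.5, 648.1, 400 and 648.9 TPM with saline and 186.4, 200, 122.7 and 163.4 TPM with dDAVP (log2 fold change -1.75, SE 0.21, limma adjusted p = 0.0032). Of its 3 weak peaks 1 was called lower, from 4.83 to 3.47. Ckmt1, the mitochondrial creatine kinase, had 1436, 1457, 1170 and 1486 TPM with saline and 729, 899.1, 873.4 and 677.1 TPM with dDAVP (log2 fold change -0.81, SE 0.15, limma adjusted p = 0.031). Its weak peak over a start went from 6.99 to 6.11 and was called. Scnn1a, a subunit of the epithelial sodium channel, fell by 1.03 and the monocarboxylate transporter gene Slc16a5 by 1.40 on the log2 scale. Tmem37 fell by 1.31, and the weak peaks of these 3 were not called.

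Among the genes that rose with no weak peak called were Cdk18, Btc, Ache, Ly6e, Adh1 and Dab1. Cdk18, a kinase gene, had 32.2, 32.5, 47.8 and 19.0 TPM with saline and 177.6, 177.3, 126.0 and 183.3 TPM with dDAVP (log2 fold change 2.35, SE 0.29, limma adjusted p = 0.0035). The growth factor gene Btc, the acetylcholinesterase gene Ache, Ly6e, Adh1 and Dab1 had log2 fold changes of 1.82, 1.87, 1.16, 0.93 and 2.02. Of these 16 genes, only Aqp2, Car15, Cdk18, Crem and Id2 stayed below an adjusted p of 0.05 whichever single library was left out. The number called among genes with a weak promoter peak ranged from 5 without the dDAVP library 3 to 22 without the saline library 4.

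Several genes with weak peaks had RNA that did not pass the test. Hmx2 had 234.4 to 323.6 TPM with saline and 103.8 to 195.9 TPM with dDAVP (log2 fold change -1.02, SE 0.22, limma adjusted p = 0.076). Insrr, the one intercalated gene with a weak peak called, had 128.3 to 180.5 TPM with saline and 47.4 to 112.5 TPM with dDAVP, ranges that did not overlap. It did not pass here (limma adjusted p = 0.12, log2 fold change -1.15, SE 0.28), while the authors' deposited table of RNA gives it an adjusted p of 3.6e-07. Conversely, Ckmt1 and Tmem37 passed here and have adjusted p of 0.69 and 0.13 in the authors' deposited table. Aqp4 had 33.3 to 308.9 TPM with saline and 161.4 to 462.8 TPM with dDAVP, overlapping ranges (limma adjusted p = 0.33). Pde4a, whose weak peak was called lower, had 12.3 to 34.2 TPM with saline and 18.9 to 30.6 TPM with dDAVP, and its RNA did not pass (limma adjusted p = 0.88, log2 fold change 0.18, SE 0.34). Gnas, with second starts under weak peaks, had 743.1 to 978 TPM and 788.3 to 949 TPM (limma adjusted p = 0.97, log2 fold change -0.02, SE 0.15). Levels are per gene, so RNA from a weak start was not separated from that of a strong one.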

How the data were processed

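The authors' deposited ATAC-seq table lists 270806 peaks on mm10 with the log2 mean normalised signal of all libraries and of each group, a log2 fold (dDAVP relative to saline) with adjusted p-values, and an annotation and a gene name per peak. Per the submitters' processing notes, cutadapt 3.4, Bowtie2, SAMtools, Picard, MACS2 and DiffBind were used, in an order and with settings not given in the sources used here. The table gives group means, so no test of its own was run on it, and depth is unknown. RNA-seq values are TPM as deposited by the authors, with STAR and RSEM named in the submitters' processing notes. TPM keeps no depth. The dDAVP RNA-seq table also holds adjusted p-values from the authors' own DESeq comparison, per the file headers. The dDAVP table holds 5035 genes, all above 10 TPM in each of 8 libraries, and the table with the WT units holds TPM averaged here over 3 libraries per unit.

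Weak peaks were those annotated promoter-TSS with a mean signal below 7, and a gene was taken from the deposited gene name. Genes were compared between dDAVP and saline with limma 3.58.1 (R 4.3.3, eBayes with a trend) on log2(TPM + 1), two-sided, with Benjamini-Hochberg adjustment over all 5035 genes at 0.05. Fold changes are on that scale, which understates those of low genes. The replicates are libraries, and p-values measure the spread between them, which may be technical. On simulated data of 5035 genes, 39 of 100 genes changed by 1 log2 unit and 87 of 100 changed by 2 were recovered, with 4 false calls. Titles give replicate numbers 1 to 4 in both groups. The correlations of same-numbered deviations were 0.19, 0.23, 0.087 and -0.15, so that the numbers were not taken to pair the libraries, and the title of the dDAVP library 4 carries both a 4 and a 3.

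Named peaks and genes were chosen by rule: the 5 nearest the threshold on each side and the 5 lowest, the 10 largest called gains and losses, peaks at 0 in 1 group, members of gene lists, genes that passed limma, the 5 with the most, widest and narrowest weak peaks, and the genes of highest and lowest RNA. Members and lists were chosen with earlier results of these data known. No genome of the build was given, so sequence was taken from RefSeq promoter windows (GRCm38.p6), and the planned 300 bases around peak centres and the whole peaks were not used here. Motifs were searched on both strands. A few items that the rule names are not reported here.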

Additional observations from a re-analysis of the deposited data

Results flagged for a closer look

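Of 58 groups of 4 values screened, 7 held a sample whose gap to the nearest of the others, as a share of the group's range, was above Dixon's 95% critical value. Chance flags about 1 in 20 such groups.

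Gpx3 stood out in both RNA-seq tables. The saline library 3 had 30995 TPM of Gpx3 where the other 3 had 500.6 to 4747 TPM, and WT unit 3 had 2152 TPM where the others had 121.5 to 354.9 TPM. S100g had 7549 TPM in the saline library 2 and 223.3 to 1285 TPM in the others. Both genes are weak only with no strong peak within 1 kb.

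Among genes whose RNA was called, Car15 had 1863 TPM in the saline library 1 and 1430 to 1471 TPM in the others. Cdk18 had 126.0 TPM in the dDAVP library 3 and 177.3 to 183.3 TPM in the others. Ckmt1 had 1170 TPM in the saline library 3 and 1436 to 1486 TPM in the others. The median TPM of strong-only genes was 22.0 in WT unit 3 and 23.3 to 23.4 in the other 3 units.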

How the results depend on the processing

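No result of the report changed sign under the alternatives run, but the share of weak promoter peaks called lower (7.89%, against 5.98% of all peaks) fell below that of all peaks with the threshold at 6. There 405 weak promoter peaks (3.59%) were called lower and 73.4% had a fold change below 0; at 8 these were 2068 (14.0%) and 79.4%, and 1263 genes had both kinds of peak. At an adjusted p of 0.01 the calls were 342 lower and 13 higher. With centres within 100 bases of a start they were 318 lower and 11 higher, of 2337 peaks, with 73.3% below 0. The share below 0 was 77.9% with signal above 0 in both groups, 79.3% from the difference of the group signals, 68.3% less the median of all peaks and 68.1% over 1000 bases from any strong peak, where 584 were called lower. The subsets hold fewer peaks by construction.

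Mean of the unit medians, in TPM, was 23.0 for strong only, 27.7 for both kinds, 2.80 for weak only, 23.3 for weak only with a strong peak nearby and 0.515 for isolated genes. Without predicted models, Riken clones, microRNAs and small nucleolar RNAs it was 25.0, 29.4, 4.73, 26.9 and 0.708. At a threshold of 6 it was 20.4, 23.5, 2.08, 20.2 and 0.278, and at 8 it was 25.9, 32.7, 5.42, 25.9 and 2.43. With the strong peak within 500 or 2000 bases, the nearby group had 23.9 and 22.5. By the gene of the annotated transcript, strong only had 21.6 and the nearby group 24.1. The split by a nearby strong peak, its distances and the transcript gene were chosen after seeing the data.

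No paired analysis was possible for ATAC-seq because the table gives group means. For RNA the replicate block left 4 of the 16 called genes (Aqp2, Car15, Crem and Id2), and leaving out 1 library kept 5 to 15 of them. The number called among all genes with a weak promoter peak, also those outside the 16, was then 5 to 22. It was 8, 7, 8, 5 and 9 without the saline library 1 or 2 or the dDAVP library 1, 3 or 4. Over all 5035 genes tested, 7 to 47 were called. Quantile normalization ended the calls of Aqp2 (log2 fold change 0.42, limma adjusted p = 0.70) and Ckmt1 (0.061). The cause was not tested. The planned sequences around peak centres and of whole peaks were not run. Depth is unknown in all tables, so that a peak listed at 0 cannot be given an upper limit.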
